A study of Mus musculus with 2 samples.

Results

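Genes of interferon signaling and antigen presentation were described by the accessible regions found around them in mouse prostate tumor cells. The set holds 48 genes chosen by function, with earlier results of these data known. It was read against all 21887 protein-coding genes on chromosomes 1 to 19, X and Y. RefSeq annotates 46 of the 48 as protein-coding and the other two, Mx1 and Mx2, as transcribed pseudogenes. By role the set falls into 4 MHC class I genes, 11 genes of antigen processing and loading, 22 of interferon signaling and 11 effectors. The assay was ATAC-seq, where a transposase cuts and tags open DNA. Both libraries came from prostate tumor cells of strain C57BL/6 that had received tamoxifen. W2, the early stage of progression to neuroendocrine prostate cancer (NEPC), had 2 weeks of it and M6, the late stage, 6 months. These stages come from the submitters' labels, and the name of the M6 file gives a code of unknown meaning and no time. Any engineered alleles, what tamoxifen induced and how the cells were obtained remain details not given in the sources used here. With 1 library per time point, stage and library cannot be told apart, and nothing below could be checked on replicates.

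Cells show fragments of their own proteins on MHC class I molecules. The proteasome cuts the proteins, the TAP transporter carries the peptides into the endoplasmic reticulum, and a loading complex places them on a class I heavy chain paired with beta-2 microglobulin. Interferons bind cell-surface receptors whose JAK kinases phosphorylate STAT proteins. STAT2 pairs with a partner STAT and IRF9 to bind the interferon-stimulated response element (ISRE), and other STAT dimers bind the gamma-activated site (GAS). Many class I and antiviral genes carry these elements near their starts. Low antigen presentation is a known feature of neuroendocrine tumors.

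A peak is a region that the authors' caller found above the local background of its own library. W2 had 5735 peaks and M6 22570, over a lowest background of 2.96 and 2.65 tags. Summit pileup counts the tags that cover the highest point of a peak. Its lowest value was 12 in W2 and 10 in M6, so weaker sites are outside both lists and the lack of a peak does not show closed chromatin. The cell type label was checked on marker genes, counting peaks within 1 kb of a gene end, which 18.4% of all protein-coding genes had in W2 and 39.7% in M6. Of 11 luminal markers 4 in W2 and 6 in M6 had one, Epcam, Cdh1, Cldn3 and Elf3 in both, while Pbsn and Hoxb13, genes typical of prostate epithelium, lacked peaks within 10 kb in both. For neuroendocrine markers the counts were 0 and 5 of 10. Leukocyte markers, which matter here because immune cells use many of these genes, came to 0 and 1 of 20 (Coro1a). Their loci held 4 W2 and 8 M6 peaks in all, and 16 of the 20 genes, Ptprc and Spi1 among them, had none. Endothelial and fibroblast markers had none of 7 each at gene ends in either library.

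Promoters of 12 starts are printed below, with motif matches marked where present. They are the 200 bases before an annotated start, read 5′ to 3′ on the gene's strand, from the RefSeq table of build GRCm38.p6, the assembly behind mm10. Capitals mark 3 motifs on either strand, the ISRE core (a GAAA block, any 2 bases and a further GAAA block), a form 1 base shorter, GAANNGAAA, and the GAS core TTCNNNGAA, and where matches overlap the capitals run together. The class I genes come first, with peaks in both libraries.
B2m (chr2:122147487-122147686, + strand): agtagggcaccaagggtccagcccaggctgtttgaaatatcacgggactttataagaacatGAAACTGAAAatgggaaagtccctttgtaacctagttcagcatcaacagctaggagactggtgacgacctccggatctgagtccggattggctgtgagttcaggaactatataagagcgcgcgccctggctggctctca
H2-K1 (chr17:34000348-34000547, - strand): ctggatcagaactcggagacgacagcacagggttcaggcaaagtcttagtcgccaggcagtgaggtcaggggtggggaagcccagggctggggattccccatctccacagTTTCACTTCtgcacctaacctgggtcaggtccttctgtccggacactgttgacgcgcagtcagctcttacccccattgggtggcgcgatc
H2-D1 (chr17:35262894-35263093, + strand): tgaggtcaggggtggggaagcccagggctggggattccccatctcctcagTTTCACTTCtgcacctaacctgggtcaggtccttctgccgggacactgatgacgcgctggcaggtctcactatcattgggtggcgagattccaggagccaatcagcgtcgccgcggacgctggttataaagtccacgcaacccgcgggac
The next are Bst2, with a peak in both libraries, and Rsad2 and Irf1, with a peak in M6 and none in W2.
Bst2 (chr8:71537473-71537672, - strand): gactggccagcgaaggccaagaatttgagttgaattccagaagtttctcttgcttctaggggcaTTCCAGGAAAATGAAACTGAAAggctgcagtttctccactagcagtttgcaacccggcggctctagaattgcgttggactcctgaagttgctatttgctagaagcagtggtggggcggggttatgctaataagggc
Rsad2 (chr12:26456453-26456652, - strand): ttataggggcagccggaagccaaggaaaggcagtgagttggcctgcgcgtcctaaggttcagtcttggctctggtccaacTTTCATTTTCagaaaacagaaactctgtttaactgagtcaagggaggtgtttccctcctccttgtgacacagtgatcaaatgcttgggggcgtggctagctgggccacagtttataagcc
Irf1, the first start (chr11:53769814-53770013, + strand): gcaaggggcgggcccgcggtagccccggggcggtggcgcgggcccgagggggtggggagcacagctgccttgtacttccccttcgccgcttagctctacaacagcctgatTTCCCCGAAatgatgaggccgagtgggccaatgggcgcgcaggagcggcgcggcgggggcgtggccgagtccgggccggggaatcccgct
Isg15 and Ifit1 carry the element but had no peak over the promoter in either library.
Isg15 (chr4:156200819-156201018, - strand): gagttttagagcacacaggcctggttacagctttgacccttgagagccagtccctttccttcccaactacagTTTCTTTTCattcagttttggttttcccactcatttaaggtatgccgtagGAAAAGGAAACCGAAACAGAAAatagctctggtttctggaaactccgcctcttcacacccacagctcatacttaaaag
Ifit1 (chr19:34640689-34640888, + strand): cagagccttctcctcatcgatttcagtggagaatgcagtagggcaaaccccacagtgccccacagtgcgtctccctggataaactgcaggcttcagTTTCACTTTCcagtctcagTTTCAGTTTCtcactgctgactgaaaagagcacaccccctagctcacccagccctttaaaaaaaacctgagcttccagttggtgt
Isg20 and Parp11 are shown at 2 starts each, because at Isg20 the libraries had peaks at different starts and at Parp11 the second start lay under a peak in W2 alone.
Isg20, the second start (chr7:78913565-78913764, + strand): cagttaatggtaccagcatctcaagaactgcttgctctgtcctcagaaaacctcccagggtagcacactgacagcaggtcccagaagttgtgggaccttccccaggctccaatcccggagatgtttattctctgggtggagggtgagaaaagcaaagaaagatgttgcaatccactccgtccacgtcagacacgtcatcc
Isg20, the third start (chr7:78914035-78914234, + strand): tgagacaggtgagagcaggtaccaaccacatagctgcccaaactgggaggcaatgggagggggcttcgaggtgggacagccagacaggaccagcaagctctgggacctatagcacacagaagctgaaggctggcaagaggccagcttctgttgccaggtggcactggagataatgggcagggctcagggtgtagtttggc
Parp11, the first start (chr6:127446640-127446839, + strand): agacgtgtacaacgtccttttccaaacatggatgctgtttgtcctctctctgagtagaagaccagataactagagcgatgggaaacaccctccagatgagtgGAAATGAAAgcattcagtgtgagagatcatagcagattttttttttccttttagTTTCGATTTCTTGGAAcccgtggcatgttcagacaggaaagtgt
Parp11, the second start (chr6:127453427-127453626, + strand): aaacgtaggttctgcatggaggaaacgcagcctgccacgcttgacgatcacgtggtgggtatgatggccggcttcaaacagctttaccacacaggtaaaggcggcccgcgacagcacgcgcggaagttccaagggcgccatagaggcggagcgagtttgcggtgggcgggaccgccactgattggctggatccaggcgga

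The promoter table held 50 windows for 42 of the 48 members, each from 250 bases before a start to 50 after it. Of the 50, 14 (28.0%) held the ISRE core, against 3.35% of 21263 windows of protein-coding genes. The shorter form was in 18.0% against 6.96%, GAS in 22.0% against 7.69% and the NF-kB consensus in 22.0% against 9.25%. The members are named interferon genes, so these shares describe the list. A match is a run of letters, not a bound site. Among the 14 genes with the ISRE core, a peak lay over a promoter window in both libraries at 3 (B2m, Bst2, Stat2), in M6 alone at 3 (Erap1, Rsad2, Socs1) and in neither at 7 (H2-T23, Irf2, Ifih1, Ddx58, Isg15, Ifit1, Ifit3). The remaining gene, Parp11, had a W2 peak at its other start, whose window lacks the motif. Of the 28 members without the core, 14 had such a peak in both libraries, 5 in M6 alone and 9 in neither. Across protein-coding genes, a window lay under a W2 peak for 11.0% of genes with the core and 18.6% without it, and under an M6 peak for 28.9% and 38.7%.

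Across the whole set, peaks lay near more members in M6 than in W2. A locus, the gene body with 10 kb on either side, held a W2 peak at 20 of the 48 genes (41.7%) and an M6 peak at 37 (77.1%), against 29.6% and 59.1% of all protein-coding genes. Neither library had one at 10 members (39.9% of all genes), M6 had more locus peaks than W2 at 26 (44.4%) and fewer at 1 (1.9%). In such bulk samples, a site open in fewer cells and a site less open in each cell cannot be told apart. Within 1 kb of a gene end, 17 members (35.4%) had a W2 peak and 30 (62.5%) an M6 peak, against 18.4% and 39.7% of all genes. M6 had a gene-end peak at each of the 17 W2 members, which left 13 with one in M6 alone (21.9% of all genes), 0 in W2 alone (0.649%) and 18 with none (59.7%). At 0 members did M6 have fewer gene-end peaks than W2 (1.07% of all genes). The median member spans 14.7 kb and the median protein-coding gene 17.2 kb. Because M6 had more peaks, the lists were also compared at equal size, with the 5735 M6 peaks of highest −log10 q. These M6 peaks reached down to a −log10 q of 10.8, while the W2 list kept all its peaks, down to 1.47. The equal size turned the direction, to 17 members in W2 and 13 in M6 (16.5% of all genes in M6). In M6 alone were then 2 members, Irf9 and Cd274 (4.06% of all genes), and in W2 alone 6, H2-K1, Tap1, Tapbp, Pdia3, Psmb9 and Isg20 (6.02%). At each of these 6 the full M6 list had a gene-end peak, below that limit.

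**Figure D1:**
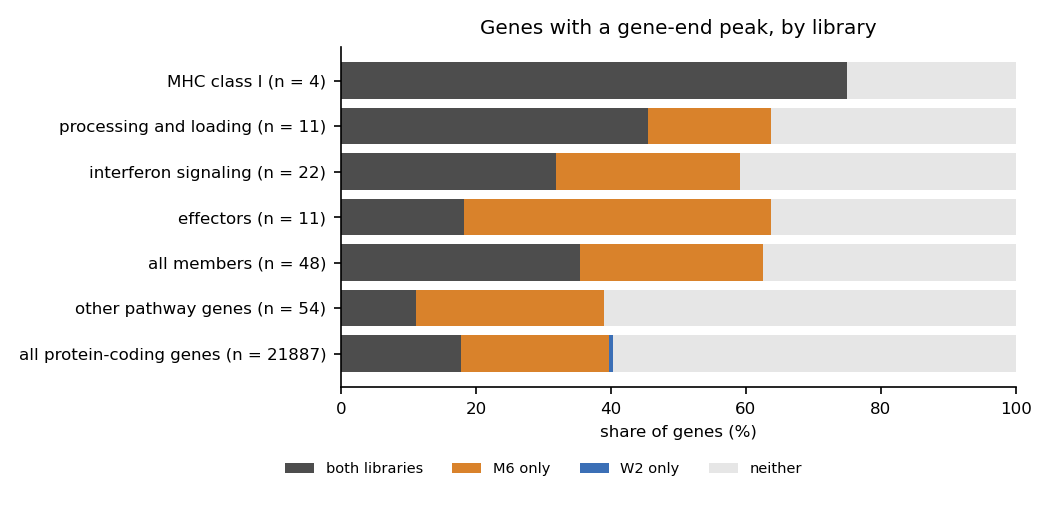
Share of genes by where a gene-end peak was present: both libraries, M6 only, W2 only or neither, by role, with the number of genes in each row. The share present in both was 75.0% for MHC class I and 18.2% for effectors, and all protein-coding genes stood at 17.8%.

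The 3 classical class I components had a peak at the start in both libraries. B2m, which encodes beta-2 microglobulin, reached 19 tags in W2 and 29 in M6, in peaks at chr2:122147508-122147746 and chr2:122147426-122147839. H2-K1, a class I heavy chain, had 17 tags in W2 and 22 in M6, and H2-D1, another heavy chain, 26 and 41. The authors' −log10 q went from 6.27 to 12.7 between W2 and M6 at B2m, from 4.85 to 10.3 at H2-K1, and from 8.39 to 18.6 at H2-D1. All 3 were higher in M6, by 1.53 times (exact 95% counting interval 0.83 to 2.88), 1.29 times (0.66 to 2.6) and 1.58 times (0.94 to 2.68), and each of these intervals includes 1. Over all 4618 shared sites the median ratio was 1.46, and 85.8% of sites were higher in M6, so the class I genes stood near the shift of the whole list. The summits lay at positions −92 to 5 relative to a start, in or beside the printed promoters. H2-T23, a nonclassical class I gene, lacked a locus peak in both. H2-K1 and H2-D1 belong to a gene family, their 300-base windows were identical at 59.3% of 361 aligned positions with an unbroken match of 47 bases, with the placement of reads that match both not given in the sources used here. Their values are therefore uncertain.

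Genes that load peptides had gene-end peaks in both libraries at 4 of 5 members (17.8% of all genes). Calr, which encodes the chaperone calreticulin of the loading complex, had the strongest, with 28 tags in W2 and 45 in M6 (1.61 times, 0.98 to 2.68) and an M6 −log10 q of 22.6, above 96.2% of the M6 list. Pdia3, a disulfide isomerase of the same complex, had 17 tags in W2 and 27 in M6 at an end it shares with Catsper2. Tap1 and Psmb9, which encode a TAP subunit and an immunoproteasome subunit, are transcribed apart from a common promoter, and 1 peak served both, with 16 tags in W2 and 15 in M6. This peak was weak in both libraries, above 8.42% of the W2 list and 6.49% of the M6 list. Tapbp, which encodes tapasin, had 23 tags in W2 and 21 in M6 at its end, near that of Zbtb22. At these gene ends M6 pileups were a little below those of W2, at 0.94 times (0.43 to 2.02) for Tap1 and Psmb9 and 0.91 times (0.48 to 1.73) for Tapbp. A second shared Tapbp site, in its flank, had 23 tags in W2 and 29 in M6 (1.26 times, 0.70 to 2.28). Upstream of Tapbp a site at an end of Daxx had 38 tags in M6, with a W2 counterpart that did not reach into the 10 kb window. Tap2, the other TAP subunit, had no gene-end peak and 1 weak M6 peak in its flank (13 tags).

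Among the 4 proteasome and trimming genes, W2 had gene-end peaks at 1 (Psmb9) and M6 at 3, against 18.4% and 39.7% of all genes. Psmb10, an immunoproteasome subunit, had an M6 peak of 21 tags and none in W2. That peak lay with its summit 1130 bases inside the gene from the start, and its near edge reached into the 1 kb window. Erap1, the peptidase that trims class I peptides, had an M6 peak of 24 tags with its summit 24 bases after the start and no W2 peak within 75.6 kb of it. Psmb8 had no peak at its locus in either library. The transactivators Nlrc5, of class I genes, and Ciita, of class II genes, had none at a gene end in both libraries. Nlrc5 had 1 M6 peak inside the gene (17 tags). Ciita had 1 M6 peak inside the gene, 30.8 kb from its lower end (chr16:10510599-10511231), with 42 tags, a fold of 6.80 over local background and a −log10 q of 19.6, above 93.7% of the M6 list. The nearest W2 peak was 31.8 kb away. Ciita is active mostly in immune cells, whose markers had M6 gene-end peaks at 1 of 20 genes, and their part in this peak was not tested.

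**Figure D2:**
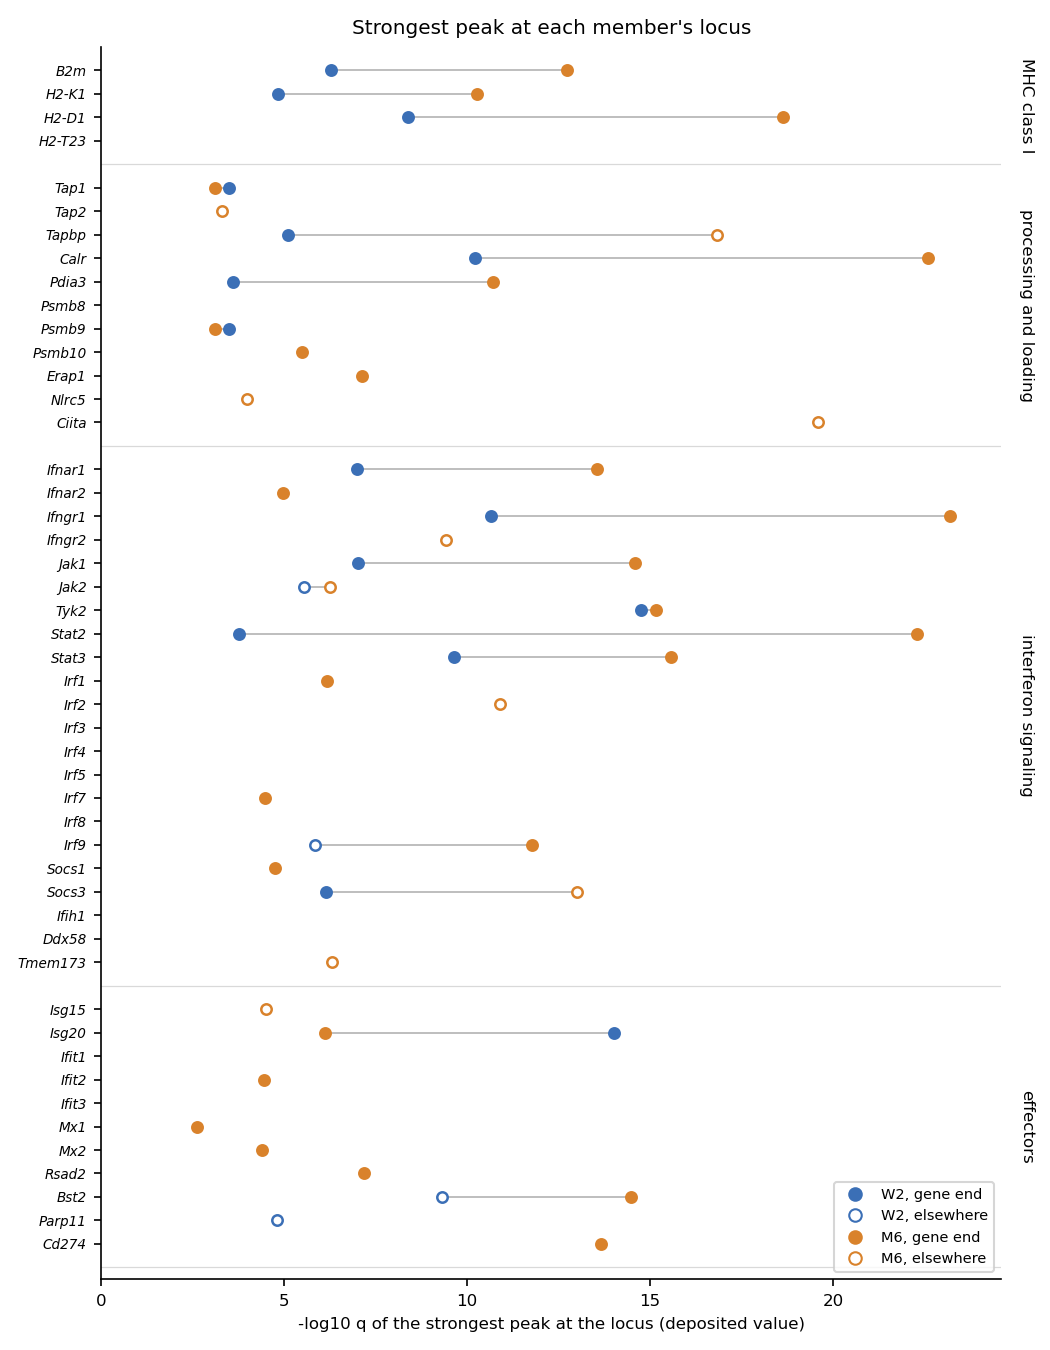
The −log10 q of the strongest peak at the locus of each of the 48 members, W2 in blue and M6 in orange, filled where that peak is at a gene end and open elsewhere. Grey lines join the libraries, rows without a point had no peak, and at Isg20 the W2 value (14.0) was above that of M6 (6.13), while Tap1 and Psmb9 share 1 peak per library.

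Of the 4 interferon receptor chains, Ifnar1 and Ifngr1 had gene-end peaks in both libraries (17.8% of all genes). Ifnar1, a chain of the type I receptor, had 20 tags in W2 and 29 in M6 (1.45 times, 0.79 to 2.70). Ifngr1, a chain of the interferon-gamma receptor, had 27 and 41 (1.52 times, 0.91 to 2.57), and its M6 −log10 q of 23.2 was the highest of any member peak. Ifnar2 and Ifngr2, which encode the other chain of each receptor, had M6 peaks only, away from their own starts. The Ifnar2 peak (18 tags) lay at the end of the gene that borders Il10rb, 33.5 kb after the Ifnar2 start, and the Ifngr2 peak (22 tags) lay at position −5032 from the start.

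Kinases and STATs that relay the signal had a locus peak in both libraries at each of the 5 genes (28.6% of all genes). At gene ends 2 of 3 kinases and 2 of 2 STATs had a peak in both (17.8% of all genes). Jak1, which serves type I and II receptors, had 20 tags in W2 and 30 in M6 (1.5 times, 0.82 to 2.79). Tyk2, which serves the type I receptor, had 33 and 32 (0.97 times, 0.58 to 1.63), the second highest W2 pileup at a member locus after the 34 tags of Isg20. Tyk2 was thus about as high in both, while most shared sites were higher in M6. Jak2, of the interferon-gamma receptor, lacked gene-end peaks and had a site inside the gene with 18 tags in W2 and 15 in M6, with 2 more M6 peaks inside. Stat3, which relays mainly cytokines of the interleukin-6 class, had 24 and 36 tags.

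Stat2 had the largest difference of any site shared by both libraries in the set. At its start, a region also within 1 kb of an end of Apof, W2 had 18 tags and M6 45, a ratio of 2.50 (1.42 to 4.59). The fold over local background was 3.78 in W2 and 7.32 in M6. A further M6 peak of 29 tags had its summit at position −1824 from the start. Stat2 was the 1 site of 20 whose counting interval lay above 1, and 27.2% of all 4618 shared sites had such an interval. The Stat2 interval includes 1.46, the median ratio of all shared sites, and tags were not corrected for read depth. This interval compares the tags of 2 libraries, not the stages.

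The 8 interferon regulatory factors, transcription factors of the response, had no gene-end peak in W2 (18.4% of all genes did), and 3 had one in M6. The M6 share, 37.5%, was near the 39.7% of all genes. Irf9, the DNA-binding partner of STAT2, had an M6 peak of 30 tags and a −log10 q of 11.8 at its start, near an end of Rnf31, with the nearest W2 peak 12.1 kb away. Irf1, which interferon-gamma induces, had an M6 peak at each of 2 starts, with 18 and 21 tags. Irf7, the amplifier of type I interferon production, had 20 tags in M6 at its start. At Irf9 a site in the flank near Rec8 went the other way, with 21 tags in W2 and 15 in M6 (0.71 times, 0.34 to 1.45). Irf2, a factor that can repress the same elements, had 5 M6 peaks inside its gene, with 16 to 26 tags, and the W2 peak nearest to any of them was 124 kb away. Its own start, which carries ISRE and GAS matches, had no peak in either library. Irf3, Irf4, Irf5 and Irf8 had no peak at their loci in either library. The last 3 are used mainly by immune cells, and Irf3 by most cells.

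Feedback inhibitors and nucleic acid sensors followed. Socs3, an inhibitor of JAK kinases, had 24 tags in W2 and 32 in M6 at its start (1.33 times, 0.76 to 2.37) and 20 and 32 at a site in its flank. Socs1, the main brake on interferon-gamma signaling, had an M6 peak of 23 tags over its start and none in W2. The RNA sensors Ifih1 and Ddx58 had no peak at their loci in either library. Tmem173, which encodes the DNA signaling adaptor STING, had 3 M6 peaks of 15 to 22 tags, 1 of them at a gene end, and no W2 peak within 76.6 kb.

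Of 11 effectors, 2 had gene-end peaks in both libraries (17.8% of all genes), 5 in M6 alone (21.9%) and 4 in neither (59.7%). With equal numbers of peaks there were 2 in each library, Isg20 and Bst2 in W2 and Bst2 and Cd274 in M6. Bst2, which encodes the virus tether tetherin, had 18 tags in W2 and 31 in M6 at its start (1.72 times, 0.93 to 3.27), over the ISRE and GAS matches printed above. A site at position −5372 (W2 summit), at an end of Mvb12a, had 25 and 31. Rsad2, which encodes the antiviral enzyme viperin, had an M6 peak of 22 tags at its start, and the nearest W2 peak was 670 kb away. Ifit2, an RNA-binding antiviral gene, had 19 tags in M6. Mx1 and Mx2, GTPase genes, had M6 peaks alone at gene ends, 1 of 12 tags at Mx1 and others of 15 and 19 tags at Mx2. The peaks of 12 and 15 tags were weak, above 2.77% and 1.15% of M6 peaks, and that of 19 tags was above 21.2%. Ifit1 and Ifit3, next to Ifit2, had no peak at their loci, and Isg15, a ubiquitin-like modifier, had 1 M6 peak of 19 tags in its flank at an end of Agrn. Cd274, which encodes the checkpoint ligand PD-L1, had 2 M6 peaks and none in W2. The stronger, 29 tags with a −log10 q of 13.7, lay at the lower annotated end of the gene, at position −5521 from the RefSeq start, and the weaker, 15 tags, over that start.

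At Isg20 the gene-end peaks of the 2 libraries lay at different starts, with fewer tags in M6. Parp11 had a peak in W2 alone. Isg20, an antiviral exonuclease gene, has 3 annotated starts. The W2 peak (chr7:78913571-78913937, 34 tags, fold 6.34) had its summit at position −9 from the second, and the M6 peak (chr7:78914041-78914308, 26 tags, fold 3.75) had its summit at position −32 from the third. The 2 peaks did not overlap, with 103 bases between them and 447 between their summits. A second M6 peak, of 22 tags, lay inside the gene, so M6 had 2 locus peaks and W2 had 1. Parp11, an ADP-ribosyltransferase gene, had a W2 peak of 18 tags over its second start and no M6 peak within 254 kb of it. It was the 1 member with a locus peak in W2 alone, as were 0.973% of all genes. At annotated starts, known for 42 members, 18 had a W2 peak (19.9% of all genes with a start) and 26 an M6 peak (42.3%). Of these, 17 had a peak in both libraries, 9 in M6 alone (23.1% of all genes with a start) and 1 in W2 alone (0.669%).

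**Figure D3:**
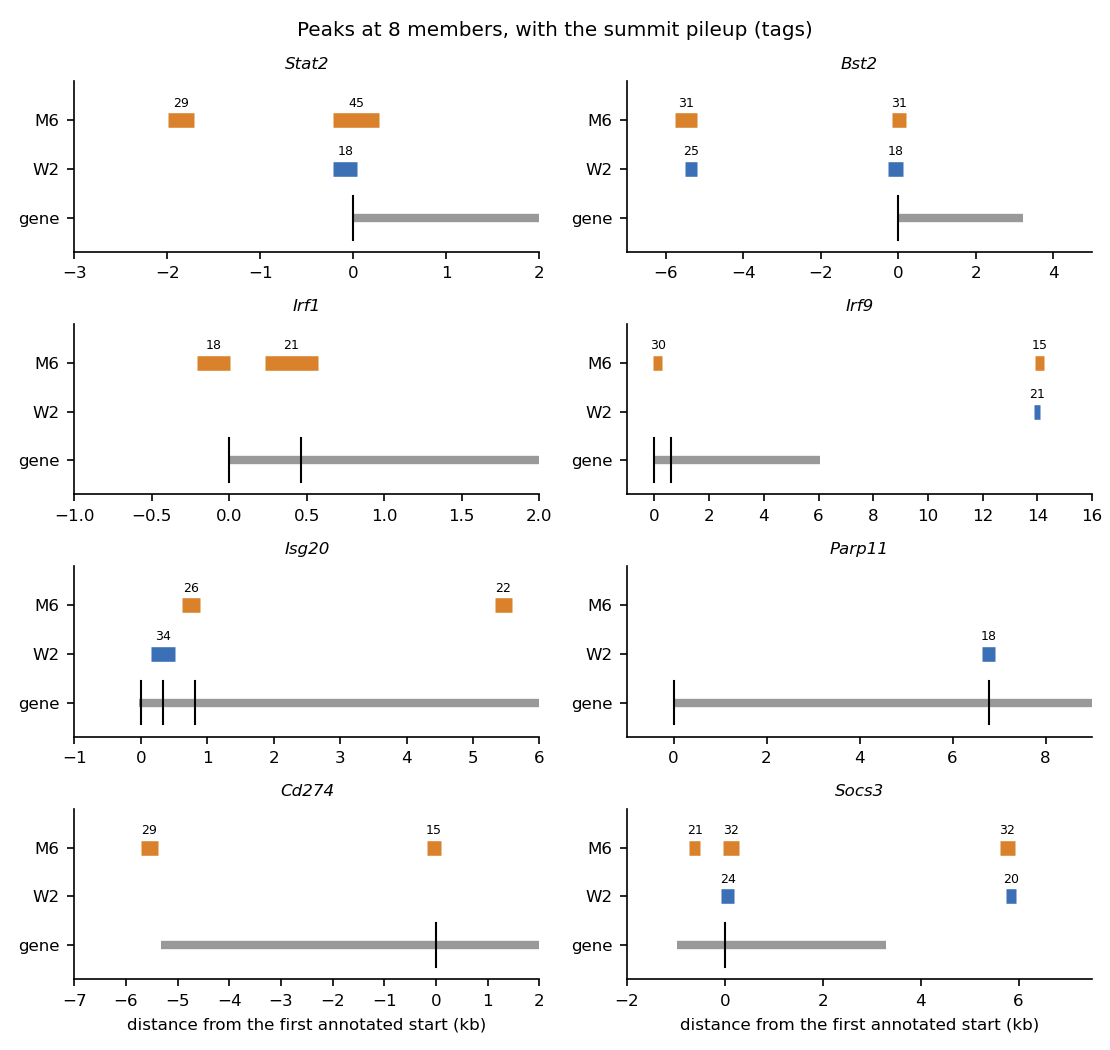
Peaks of W2 (blue) and M6 (orange) at 8 members against the distance from the first annotated start in kb, with the summit pileup in tags above each peak, the gene body in grey and annotated starts as black lines. Isg20 had peaks of 34 tags in W2 and 26 in M6 at neighbouring starts, and Parp11 had a W2 peak of 18 tags and none in M6.

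At sites with a peak in both libraries the members stood close to all shared sites. The loci held 22 W2 and 58 M6 peaks, each counted once. Of the 22 W2 peaks 20 (90.9%, exact interval 70.8 to 98.9%) overlapped an M6 peak, against 80.5% of all W2 peaks, while 21 of 58 M6 peaks (36.2%, 24.0 to 49.9%) had a W2 counterpart, against 20.2% of all M6 peaks. The shares of all peaks were not matched to the members for place. Among M6 member peaks, 15 of 32 at gene ends had a counterpart (46.9%) and 6 of 26 elsewhere (23.1%). Over the 20 shared member sites the median pileups were 20.5 (W2) and 30.5 (M6), and the median log2 ratio was 0.56, against 0.55 over all 4618 shared sites. Of the 20, 15 were higher in M6 (85.8% of all shared sites were), and 10 were at least 1.5 times higher (47% of all). The local background at member peaks was 2.96 to 5.22 tags in W2 and 2.65 to 6.78 in M6.

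**Figure D4:**
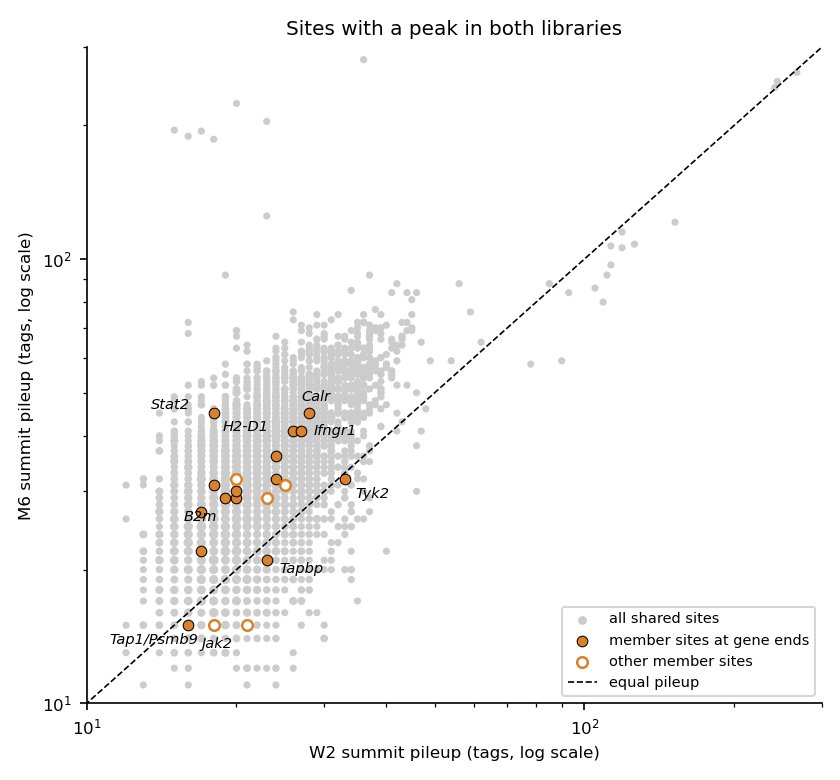
Summit pileup in M6 against W2, in tags on log axes, for the 20 shared member sites (orange, filled at gene ends) and all 4618 shared sites (grey, larger where several sites coincide). The dashed line marks equal pileup, and Stat2, with 18 and 45 tags, stood farthest above it among the members.

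Gene-end peaks found in M6 alone were mostly weaker. In the 13 genes with such a peak in M6 alone, the strongest gene-end peak had 12 to 30 tags (median 21) and a median −log10 q of 4.98. In the 17 genes with one in both it had 15 to 45 tags (median 30) and a median −log10 q of 13.5. Of the 12 M6 member peaks with a −log10 q below 5, 2 had a W2 counterpart, against 8.22% of all such gene-end peaks. From 5 to 10 it was 0 of 5 against 22.8%, from 10 to 15 it was 7 of 9 against 53.5%, and from 15 upward 6 of 6 against 86.5%. Irf9 and Cd274 were the members without a counterpart between 10 and 15.

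**Figure D5:**
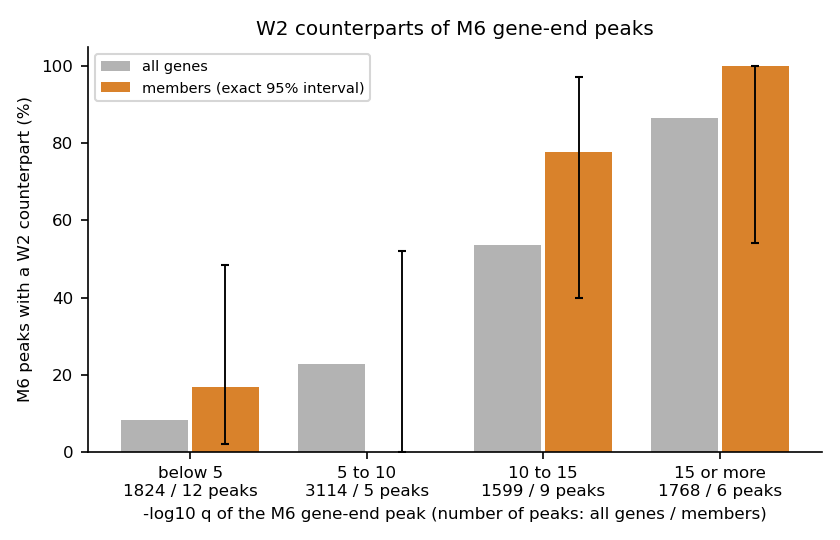
Share of M6 gene-end peaks that overlap a W2 peak, by the −log10 q of the M6 peak, for all genes (grey) and members (orange, with exact 95% intervals). Both series were highest in the strongest class, at 86.5% for all genes and 6 of 6 peaks for members.

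Other genes of the pathway, a list of 54, had gene-end peaks at 6 genes (11.1%, all of them also in M6) for W2 and at 21 (38.9%) for M6. All protein-coding genes stood at 18.4% and 39.7%, so this wider list was below them in W2 and near them in M6. Canx, which encodes the chaperone calnexin, had 21 tags in W2 and 53 in M6. Psme2, an activator of the immunoproteasome, had 28 and 48 at an end it shares with Rnf31, and Mavs, the mitochondrial adaptor of the RNA sensors, had 21 and 31. H2-Q4, another class I gene, had a W2 −log10 q of 13.6 and an M6 value of 7.74. Usp18, a deconjugating enzyme that dampens type I signaling, had values of 4.42 and 4.17. In M6 alone, Rfxank, a subunit of the factor that drives class II genes, had 49 tags at an end shared with Borcs8, and Trim21, an antibody receptor in the cytosol, had 27.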

How the data were processed

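ATAC-seq peaks were deposited by the authors for 1 W2 and 1 M6 library. The submitters' processing notes name build mm10 with deepTools, Bowtie2, SAMtools 1.4 and Trim Galore 0.5.0, the peak caller being not given in the sources used here. A deposited peak has a fold (the linear ratio of summit to local background), a −log10 p, a −log10 q and a score that stayed within 1 of 10 times the latter and went unused. Read depth is unknown. Pileup and background were recovered from the fold, taken as (pileup + 1)/(background + 1), and the Poisson −log10 p, and gave a whole pileup within 0.001 for 100% of the peaks. The code was tested on simulated data. Peaks on other sequences (30 in W2, 24 in M6) were left out. Genes came from RefSeq (GRCm38.p6), and Tmem173 was matched as Sting1. Overlap means at least 1 bp. Shares carry exact (Clopper-Pearson) 95% intervals and pileup ratios exact conditional ones, both for counting error alone. With 1 library per time point no test was made. Every member was to be named. Values were to be given for class I genes and for members with a gene-end peak or at least 3 locus peaks. Other pathway genes were named for the 5 highest gene-end −log10 q of either library. Members, lists and motifs were chosen with earlier results of these data known. Python 3.11.15, NumPy 2.4.6, pandas 2.3.3, SciPy 1.17.1, Biopython 1.88 and matplotlib 3.10.9 were used. The alternatives were other windows, a stricter −log10 q, equal numbers of peaks, other overlap rules and other scales of the pileup.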

Additional observations from a re-analysis of the deposited data

How the results depend on the processing

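No paired analysis was possible because each time point had 1 library. The direction of the set turned when the M6 list was cut to the size of the W2 list. With equal numbers of peaks by −log10 q, 16 members had an M6 locus peak and 13 a gene-end peak, with 18 M6 peaks at the loci, and M6 minus W2 was −4 genes for both counts. Counterparts were then found for 59.1% of the W2 and 77.8% of the M6 peaks. By fold, the M6 counts were 17, 12 and 17, and the differences −3 for loci and −5 for gene ends. In locus peaks, Tapbp, Pdia3, Jak2 and Isg20 turned to −1 in M6 minus W2 under both rankings, and Irf9 and Socs3 to −1 by fold. These lists hold fewer M6 peaks by construction. With 50 kb on either side, 33 members had a W2 peak, from 60 W2 and 138 M6 peaks. At a minimum −log10 q of 5, 11 members had a W2 gene-end peak and 20 an M6 one, and 35 M6 peaks lay at the loci. The direction stayed there, with M6 minus W2 at 9 genes for gene ends and 12 for loci. Across all alternatives, 38 values for the set stayed within their limits, 13 moved beyond them and 4 reversed. The limits were wide: 1.5 times for counts, the exact interval for shares, and the standard deviation over sites (0.42) for the log2 ratio. Within them were these differences at a minimum −log10 q of 5, gene ends of 0.5 and 2 kb and both overlap rules. Both other scales of the pileup also stayed within (median log2 ratio 0.30 and 0.72). Of the differences in locus peaks of single members, 159 were unchanged, 119 moved and 10 reversed. No listed peak had fewer than 12 tags in W2 or 10 in M6. These are the lowest listed values, not limits of detection. A peak had to stand above its local background, so sites with more tags can be missing too.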

Other observations

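Wider surroundings of the members held peaks at most genes. Within 50 kb, 33 of 48 members had a W2 peak (48.3% of all protein-coding genes) and 45 had an M6 peak (74.4%). Members with an M6 peak between 10 and 50 kb but none nearer were H2-T23, Psmb8, Irf3, Irf4, Irf8, Ifih1, Ddx58 and Ifit3, so the RNA sensors and the immune factors Irf4 and Irf8 had distant peaks only.

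Base composition of the promoters also differed from the genome. The observed over expected frequency of CpG, which is high in promoters of broadly used genes, had a median of 0.63 at 17 members whose gene-end peak was in both, 0.51 at 10 with one in M6 alone and 0.67 at 15 with none. Over all protein-coding genes with a promoter window the medians were 0.81, 0.78 and 0.29. The median of members without a gene-end peak was thus above that of all such genes, with no test made.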
